A study of Mus musculus with 9 samples.

Results

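The genes followed here belong to the hypoxia response outside glycolysis. They are Hif1a, Epas1, Egln3, Vegfa, Bnip3, Ankrd37, Adm, Ndrg1, Ddit4 and Car9. They were chosen by name with earlier results of these data known, so their counts are not those of an independent list. All 10 were found once each among the 54986 gene IDs of the deposited files. Their RNA level was measured in 9 libraries of mouse embryonic fibroblasts, primary cells of strain C57BL/6. Of these, 3 overexpressed Zscan4f, 3 overexpressed Zscan4f3A and 3 were controls whose titles name no overexpressed gene and no empty vector. Every library, control included, is labelled D4-OSKM-2ndMEFs, OSKM being the usual abbreviation for the reprogramming factors Oct4, Sox2, Klf4 and Myc, so all groups share that background. The labels give neither the way in which Zscan4f was delivered, nor the change that 3A stands for, nor the oxygen level of the cultures.

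In cells with enough oxygen, prolyl hydroxylases of the Egln family hydroxylate the alpha subunits of hypoxia-inducible factor (HIF), the von Hippel-Lindau protein binds the hydroxylated subunit, and the proteasome destroys it. When oxygen falls, the alpha subunits Hif1a and Epas1 persist, pair with Arnt and bind short DNA elements near their target genes. HIF is thus set mainly at the protein level, which RNA values do not show. Its targets supply new vessels, clear mitochondria, slow growth, buffer acid and feed back on HIF itself, besides raising glycolysis.

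Levels are in TPM, a transcript abundance corrected for length and brought to a common sum per library. Aligned sequence per library, read from the ratio of coverage to FPKM, was 7.48 to 8.39 gigabases with Zscan4f, 3.31 to 8.38 with Zscan4f3A and 6.60 to 8.26 in control, the lowest being Zscan4f3A replicate 3. Zscan4f itself stood at 570, 565 and 558 TPM in the Zscan4f libraries, at 827, 836 and 654 with Zscan4f3A and at 0.33, 0 and 0.96 in control, in keeping with the labels. Fibroblast markers (10 of 10 at 1 TPM or more, of which 3 were called higher and 6 lower with Zscan4f against control) summed to 14283 to 14464 TPM with Zscan4f, 14266 to 14597 with Zscan4f3A and 14330 to 14378 in control. Endothelial markers summed to 48.2 to 49.1, 37.3 to 41.7 and 38.6 to 40.2 TPM in the same order. Of these, Tek was higher with Zscan4f (45.0 ± 0.601 TPM, against 30.9 ± 1.23 in control) and Erg lower (1.04 ± 0.316 against 6.44 ± 1.19; SD, n = 3 each), Cldn5 was listed at 0 in every library, and Cdh5 and Emcn did not exceed 0.0496 and 0.0766 TPM. Simple epithelial markers summed to 109.9 to 117 TPM with Zscan4f, 42.0 to 45.2 with Zscan4f3A and 37.3 to 38.6 in control, with 5 of 5 tested called higher against control, and keratinocyte markers to 94.9 to 103, 45.6 to 47.3 and 39.2 to 41.4, with 2 called higher and 2 lower. Macrophage markers summed to 26.5 to 27.8, 18.7 to 20.8 and 18.9 to 21.5 TPM, with 1 higher and 1 lower. The fibroblast sums of the groups overlapped. The endothelial, simple epithelial, keratinocyte and macrophage sums were higher in all Zscan4f libraries than in any other. Krt14 made up most of the keratinocyte sum, at 85.3 ± 4.07 TPM with Zscan4f and 28.5 ± 1.32 in control. Dsg3 was called higher as well, and Krt1 and Krt5 lower. Cd68 made up most of the macrophage sum, at 18.7 ± 1.39 and 12.0 ± 0.967 TPM in the same order, while Cd14 was called lower. Tek made up most of the endothelial sum. The keratinocyte, macrophage and endothelial sums thus mainly follow single genes. The part of all these sums in the changes given below was not tested. In bulk RNA, fewer cells of a type and less RNA per cell cannot be told apart.

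All comparisons used limma on log2(TPM + 1) over the 15837 genes with at least 1 TPM in at least 3 of the 9 libraries, and a gene counted as called where its p, adjusted over all of them by the Benjamini-Hochberg method, was under 0.05. Log2 fold changes are on that scale, which understates the change of low genes. All 10 hypoxia genes passed the filter. Nothing states that the 3 libraries of a group came from separate cultures, so p-values measure the spread between these libraries, which may be technical.

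The response was split. With Zscan4f, 4 of the 10 genes rose against control (Egln3, Ankrd37, Ddit4 and Bnip3) and 3 fell (Ndrg1, Adm and Epas1), while Hif1a, Vegfa and Car9 were not called. Over all genes tested, 8.74% were called higher and 9.71% lower in that comparison, 18.5% in all. The median log2 fold change of the 10 was -0.03, beside -0.003 over all genes tested. With Zscan4f3A 0 of the 10 were called against control by limma, beside 0.0316% of all genes (0.0189% higher and 0.0126% lower). Set directly against Zscan4f3A, Zscan4f had 4 of the 10 higher and 2 lower, beside 7.48% and 7.64% of all genes and 15.1% in either direction. An unadjusted limma p under 0.05 was reached by 7 of the 10 with Zscan4f against control, by 2 with Zscan4f3A against control and by 7 with Zscan4f against Zscan4f3A, beside 31.1%, 8.77% and 29.5% of all genes. The libraries of the groups did not overlap for 8, 2 and 8 of the 10 in the same comparisons, beside 38.2%, 15.4% and 34.8% of all genes. The 3 comparisons share libraries, so their results are not independent of each other.

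**Figure D1:**
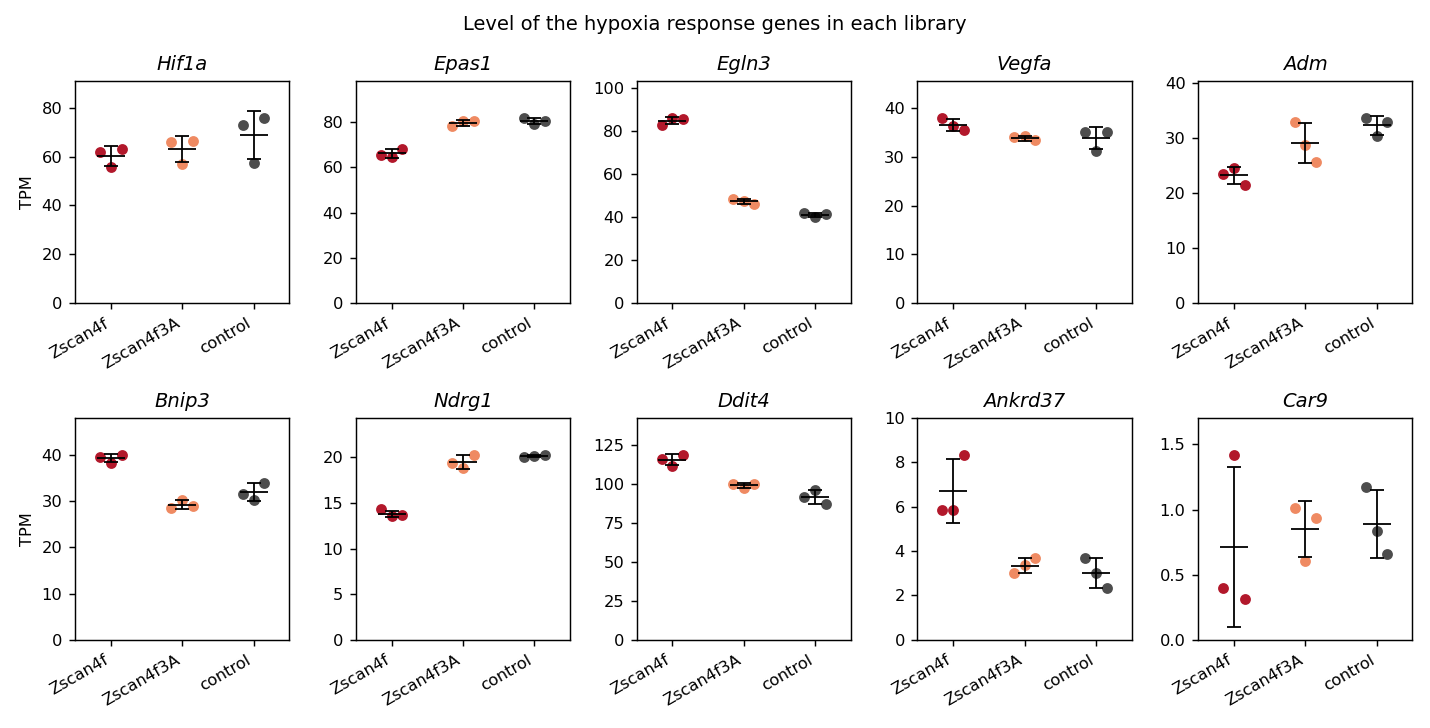
TPM of each of the 10 genes in every library (points), with the mean and SD of the 3 libraries of each group (black bars), and axes that start at 0. Egln3, Ankrd37, Ddit4 and Bnip3 lie higher in all 3 Zscan4f libraries than in any control library, Ndrg1, Adm and Epas1 lie lower, and the Car9 points of the 3 groups overlap.

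Promoter windows were examined because the 10 genes did not move together. RefSeq windows on GRCm38.p6, each running from 250 bases before a gene's start site to 50 after it, were matched by symbol for 8 of the 10 genes, not for Epas1 and Ndrg1 (9 windows, 2 of them for Vegfa). The core of the hypoxia response element was searched as ACGTG or GCGTG on both strands, so that CACGT and CACGC count as matches. At least 1 match was present in 8 of the 9 windows and in 43.8% of all 32851 windows. The Vegfa window with matches, chr17:46025114-46025413, lies inside the gene as listed in the files. So do those of Ankrd37 and of Hif1a, chr12:73907617-73907916, which do not reach the listed starts of these genes. At the listed start of Vegfa, chr17:46032328-46032627 was the window without a match. Start sites below are those of the RefSeq windows. The GC content of the 9 windows ran from 54.7% to 71.7%, and 62.0% of the 12336 windows in that range held a match. The windows of the 4 genes that rose, chr12:54203825-54204124, chr8:45999801-46000100, chr10:59951721-59952020 and chr7:138909457-138909756, all on the minus strand, and that of Adm, which fell, chr7:110627407-110627706 on the plus strand, are printed 5′ to 3′ with every matching base in capitals:
Egln3: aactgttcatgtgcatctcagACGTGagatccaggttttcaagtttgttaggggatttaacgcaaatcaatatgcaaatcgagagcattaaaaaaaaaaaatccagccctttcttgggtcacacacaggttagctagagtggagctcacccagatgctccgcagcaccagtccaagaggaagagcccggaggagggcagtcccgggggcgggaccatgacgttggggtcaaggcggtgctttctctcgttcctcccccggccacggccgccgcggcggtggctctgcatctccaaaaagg
Ankrd37: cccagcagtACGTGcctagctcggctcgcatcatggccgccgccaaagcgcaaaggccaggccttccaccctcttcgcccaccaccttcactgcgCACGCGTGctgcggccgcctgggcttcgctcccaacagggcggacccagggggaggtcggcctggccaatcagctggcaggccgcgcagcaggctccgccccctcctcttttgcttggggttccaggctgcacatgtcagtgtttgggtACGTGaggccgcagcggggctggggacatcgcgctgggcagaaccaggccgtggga
Ddit4: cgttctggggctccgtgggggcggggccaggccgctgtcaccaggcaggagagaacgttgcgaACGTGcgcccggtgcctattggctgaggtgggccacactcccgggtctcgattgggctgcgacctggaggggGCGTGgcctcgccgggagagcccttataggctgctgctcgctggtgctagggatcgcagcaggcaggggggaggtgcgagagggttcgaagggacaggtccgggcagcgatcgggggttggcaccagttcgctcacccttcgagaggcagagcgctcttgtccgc
Bnip3: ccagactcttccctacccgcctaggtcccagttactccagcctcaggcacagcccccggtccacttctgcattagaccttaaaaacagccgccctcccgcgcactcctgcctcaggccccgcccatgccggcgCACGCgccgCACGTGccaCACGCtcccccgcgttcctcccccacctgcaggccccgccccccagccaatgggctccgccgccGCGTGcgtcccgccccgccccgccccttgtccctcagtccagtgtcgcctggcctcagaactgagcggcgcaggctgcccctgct
Adm: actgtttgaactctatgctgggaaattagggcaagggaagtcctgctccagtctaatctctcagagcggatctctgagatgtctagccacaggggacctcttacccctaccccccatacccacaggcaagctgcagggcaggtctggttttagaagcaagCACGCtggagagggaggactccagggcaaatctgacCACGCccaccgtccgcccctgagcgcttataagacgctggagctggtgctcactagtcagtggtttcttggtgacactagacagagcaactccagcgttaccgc
The Egln3 window held 1 match, beginning 229 bases before the start site. Ankrd37 held 4, beginning 241, 155, 152 and 6 bases before it, and the middle pair overlap. In Bnip3 there were 5, of which those at 108 and 107 bases are the 2 strands of a single CACGTG. Ddit4 held 2, at 187 and 115 bases, and Adm 2, at 90 and 54 bases. The letters were thus present in the 4 genes that rose and in Adm, the only gene that fell for which a window was found. Among the genes not called, Hif1a held 3 matches, Car9 1 and the downstream Vegfa window 2. Those of Hif1a at 135 and 134 bases are again the 2 strands of a single CACGTG. A match describes the sequence only.

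**Figure D2:**
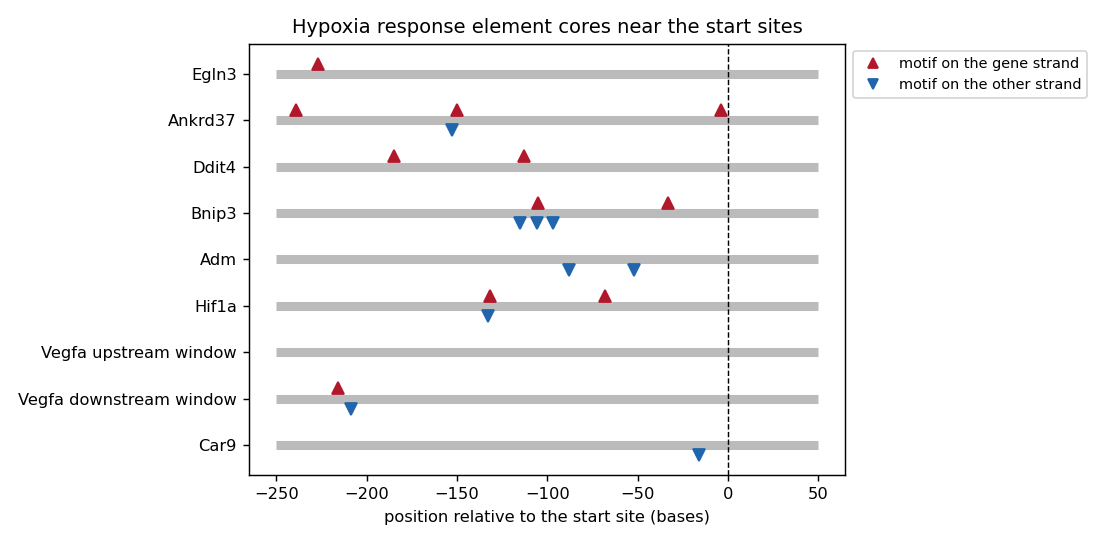
Matches to the core motif (triangles, at the middle of each match) in the 300-base windows (grey bars) of 8 hypoxia genes, with the position relative to the start site in bases on the x axis and the dashed line at the start site. All matches lie before the start site of their RefSeq window, and the upstream Vegfa window holds none. For Ankrd37, Hif1a and the downstream Vegfa window that site lies inside the gene as listed in the files.

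The HIF alpha subunits come first. Epas1 (chromosome 17, 86753907 to 86833410), which encodes HIF2 alpha, stood at 65.6, 64.4 and 68.1 TPM in the Zscan4f libraries, at 78.2, 80.5 and 80.4 with Zscan4f3A and at 81.7, 79.2 and 80.5 in control. Its Zscan4f libraries lay below all 6 others, which overlapped each other. The fall against control was -0.28 on the log2 scale (SE 0.04, adjusted p = 0.0011, limma), and against Zscan4f3A it was -0.27 (SE 0.04, adjusted p = 0.0019). Hif1a (chromosome 12, 73901375 to 73947530), the widely expressed alpha subunit, stood at 61.7, 55.6 and 63.2 TPM with Zscan4f, at 65.9, 57.1 and 66.6 with Zscan4f3A and at 72.9, 57.5 and 75.8 in control. All groups overlapped, and the library numbered 2 was the lowest in each of the 3 groups. With Zscan4f the difference from control was -0.18 (95% confidence interval -0.43 to 0.07, adjusted p = 0.32, limma), so a fall as large as that of Epas1 lies inside the interval. It was -0.30 (adjusted p = 0.054) without control replicate 2 and -0.11 (adjusted p = 0.62) without control replicate 3. With the replicate number as a block it stayed at -0.18 (SE 0.05, beside 0.11 without the block, adjusted p = 0.073, limma), still not called. The unnamed locus RP24-103K4.2, at 0.268 to 0.644 TPM, covers the whole of Hif1a on the other strand. RP24-103K4.5 shares 9878 bases with it on the same strand and stood at 0.174, 0.628 and 0.0428 TPM with Zscan4f, at 3.7, 0 and 0 with Zscan4f3A and at 0.438, 0.0158 and 0.0184 in control. The ratio of Hif1a to Epas1 TPM ran from 0.863 to 0.94 in the Zscan4f libraries, from 0.709 to 0.843 with Zscan4f3A and from 0.726 to 0.942 in control.

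Egln3 (chromosome 12, 54178981 to 54203860) encodes PHD3, a prolyl hydroxylase that acts on the HIF alpha subunits and is itself a HIF target. The Zscan4f libraries held 83.0, 86.2 and 85.6 TPM, the Zscan4f3A libraries 48.4, 47.6 and 46.2, and the control libraries 42.0, 40.0 and 41.4. No 2 groups overlapped, and the Zscan4f3A libraries lay between the others. The mean was 84.9 ± 1.70 TPM with Zscan4f and 41.2 ± 1.02 in control (SD, n = 3 each), or 1.03 on the log2 scale (SE 0.04, adjusted p = 1.5e-06, limma), which ranked 132 from the top among 15837 genes. Zscan4f exceeded Zscan4f3A by 0.83 (SE 0.04, adjusted p = 8.2e-06). Zscan4f3A against control gave 0.20 (SE 0.04), with an unadjusted limma p of 0.00089 and adjusted p = 0.30.

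**Figure D3:**
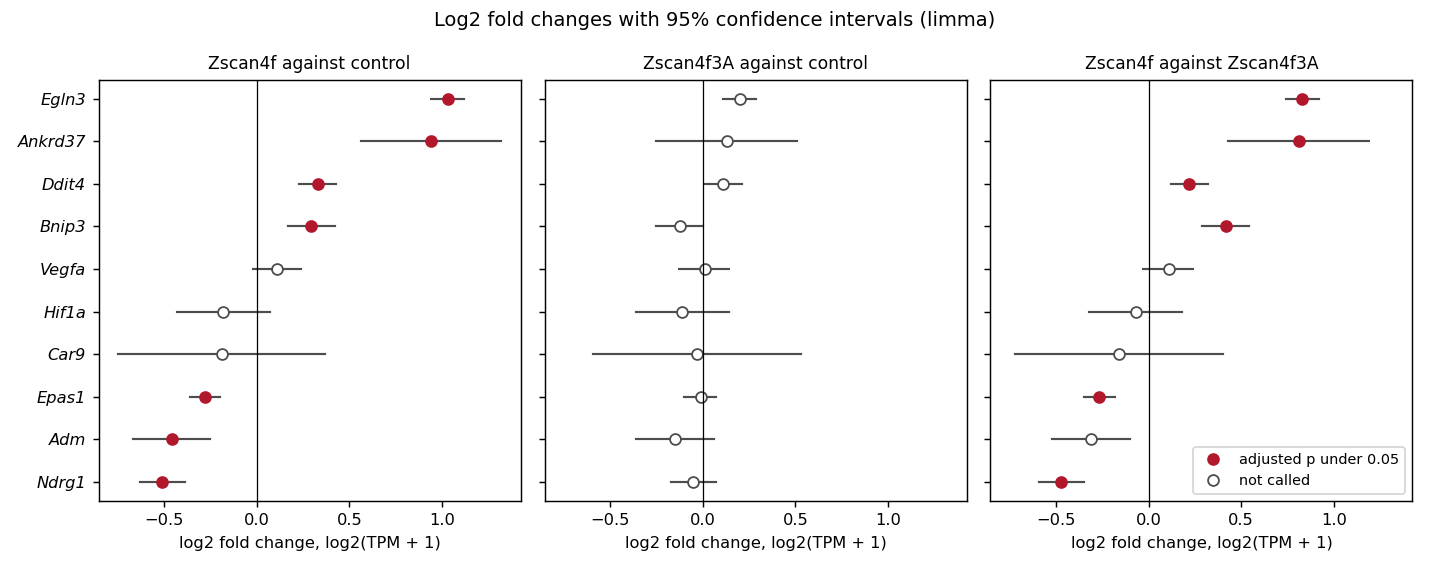
Log2 fold changes of the 10 genes in the 3 comparisons, with 95% confidence intervals that are not adjusted for the number of genes. Filled points passed an adjusted p under 0.05. The points run from Egln3 at 1.03 to Ndrg1 at -0.51 with Zscan4f against control and stay between -0.15 and 0.20 with Zscan4f3A against control.

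Of 17 genes of the HIF machinery, which include Hif1a, Epas1 and Egln3, 16 passed the filter. With Zscan4f against control 1 of these rose (Egln3) and 2 fell (Epas1 and Cited2), a share near the 18.5% of all genes called, with a median log2 fold change of 0.01. Cited2, a feedback inhibitor that competes with HIF for the coactivators p300 and CBP, stood at 18.1 ± 1.59 TPM with Zscan4f, 18.7 ± 0.801 with Zscan4f3A and 23.8 ± 2.71 in control (SD, n = 3 each). Its call against control had an adjusted p of 0.023 by limma, while Zscan4f against Zscan4f3A gave -0.04 (95% confidence interval -0.25 to 0.17). Vhl, the von Hippel-Lindau substrate receptor, was called in the direct comparison alone, at 29.9 ± 0.753 TPM with Zscan4f and 25.2 ± 1.62 with Zscan4f3A (log2 difference 0.24, adjusted p = 0.028, limma), and at 26.9 ± 0.957 TPM in control. Both other prolyl hydroxylases were left uncalled, at 34.9 ± 1.43 TPM with Zscan4f and 34.9 ± 1.52 in control for Egln1, and at 79.4 ± 4.23 and 77.2 ± 7.01 for Egln2. Hif3a, the third alpha subunit, did not exceed 0.601 TPM in any library.

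Of the secreted ligands, Adm was called and Vegfa was not. Adm (chromosome 7, 110627661 to 110629820), the vasodilator peptide adrenomedullin, stood at 23.4, 24.6 and 21.5 TPM with Zscan4f, at 32.8, 28.8 and 25.6 with Zscan4f3A and at 33.6, 30.3 and 32.9 in control. Every Zscan4f library lay below every other, and those of Zscan4f3A spread most. The fall against control was -0.46 (SE 0.09, adjusted p = 0.0095, limma). Against Zscan4f3A it was -0.31 (SE 0.09, adjusted p = 0.057), which missed the threshold, and without the shallow Zscan4f3A replicate 3 it was -0.40 (adjusted p = 0.021). A locus on the other strand, RP23-25I3.4, covers Adm and did not exceed 0.618 TPM. Vegfa (chromosome 17, 46016993 to 46032369), the main growth factor of blood vessels, stood at 38, 36.3 and 35.6 TPM with Zscan4f, at 34.1, 34.3 and 33.4 with Zscan4f3A and at 35.2, 31.2 and 35.2 in control. The Zscan4f libraries lay just above the rest, and Zscan4f3A overlapped control. The difference of Zscan4f from control was 0.11 (95% confidence interval -0.02 to 0.24, adjusted p = 0.23, limma) and was not called. Without control replicate 2 it was 0.06 (adjusted p = 0.55).

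Of 9 receptors for these ligands 7 passed the filter, and with Zscan4f 2 rose and 1 fell, both against control and against Zscan4f3A. Over all genes, 18.5% and 15.1% were called in either direction in these comparisons. Ramp2, which makes the calcitonin receptor-like receptor respond to adrenomedullin, stood at 129 ± 3.82 TPM with Zscan4f, 89.5 ± 9.22 with Zscan4f3A and 89.8 ± 5.61 in control (SD, n = 3 each; adjusted p = 0.0021 against control, limma). Its partner Calcrl was at only 2.26 ± 0.156 TPM with Zscan4f and 2.59 ± 0.905 in control. Flt1, a VEGF receptor, stood at 14.8 ± 1.33, 10.1 ± 0.436 and 9.39 ± 0.743 TPM in the same order of groups (adjusted p = 0.0017), and Nrp1, a VEGF coreceptor, at 56.3 ± 3.24, 80.7 ± 0.844 and 88.9 ± 3.00 (adjusted p = 5.9e-05). Kdr, the main signalling receptor of Vegfa, stayed at or below 0.323 TPM throughout.

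Bnip3 (chromosome 7, 138890836 to 138909519) encodes a receptor of the outer mitochondrial membrane for the removal of mitochondria by autophagy. It stood at 39.6, 38.3 and 40.0 TPM with Zscan4f, at 28.4, 30.2 and 28.9 with Zscan4f3A and at 31.5, 30.2 and 34.0 in control. The Zscan4f libraries were the highest, with no overlap. Zscan4f exceeded control by 0.29 (SE 0.06, adjusted p = 0.0069, limma) and Zscan4f3A by 0.42 (SE 0.06, adjusted p = 0.0016). Zscan4f3A minus control was -0.12 (95% confidence interval -0.25 to 0.00), not called. Bnip3l, its relative, was at 113 ± 4.70 TPM with Zscan4f, 93.2 ± 12.5 with Zscan4f3A and 98.1 ± 2.15 in control, uncalled at adjusted p = 0.13 against control and 0.051 against Zscan4f3A by limma.

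Ddit4 (chromosome 10, 59949669 to 59951834), also known as REDD1, restrains the growth kinase complex mTORC1 and was the most abundant of the 10 in each group. It stood at 116.3, 111.9 and 118.8 TPM with Zscan4f, at 100.1, 97.3 and 99.9 with Zscan4f3A and at 91.6, 96.3 and 87.1 in control. The 3 groups did not overlap. Zscan4f exceeded control by 0.33 (SE 0.04, adjusted p = 0.0012, limma) and Zscan4f3A by 0.22 (SE 0.04, adjusted p = 0.012). This last call was lost without Zscan4f replicate 3 (0.20, adjusted p = 0.052). Its relative Ddit4l went the other way, at 17.4 ± 2.25 TPM with Zscan4f, 25.8 ± 2.13 with Zscan4f3A and 28.2 ± 2.45 in control (SD, n = 3 each; adjusted p = 0.0026 against control and 0.0090 against Zscan4f3A).

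Ndrg1 (chromosome 15, 66929318 to 66969640), a cytoplasmic protein induced by hypoxia and linked to differentiation, also fell. The Zscan4f libraries held 14.3, 13.6 and 13.7 TPM, the Zscan4f3A libraries 19.4, 18.8 and 20.3, and the control libraries 20.0, 20.2 and 20.3. All Zscan4f libraries lay below all others. The log2 fold change was -0.51 against control (SE 0.05, adjusted p = 0.00029, limma) and -0.47 against Zscan4f3A (SE 0.05, adjusted p = 0.00073). Against control it ranked 924 from the bottom among 15837 genes.

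Ankrd37 (chromosome 8, 45996902 to 46005707) is an ankyrin repeat gene known as a HIF1 target. It stood at 5.85, 5.86 and 8.34 TPM with Zscan4f, at 3.00, 3.37 and 3.68 with Zscan4f3A and at 3.68, 3.00 and 2.32 in control. All Zscan4f libraries lay above all others, which overlapped. The log2 fold change was 0.94 against control (SE 0.17, adjusted p = 0.0050, limma) and 0.81 against Zscan4f3A (SE 0.17, adjusted p = 0.013). It was below the 1.03 of Egln3 on this scale, but above it with a pseudocount of 0.1, at 1.13 beside 1.04. Ankrd37 shares 57 bases with Ufsp2 on the opposite strand, which was at 48.2 ± 0.213 TPM with Zscan4f and 44.3 ± 0.810 in control, and 6405 bases with Lrp2bp, which stayed at or below 1.10 TPM. Whether counting used strand was not stated, so reads in the shared stretches cannot be told apart.

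Car9 (chromosome 4, 43506966 to 43513729), the membrane carbonic anhydrase widely used as a hypoxia marker, was the lowest of the 10. It stood at 0.40, 1.42 and 0.311 TPM with Zscan4f, at 1.01, 0.602 and 0.938 with Zscan4f3A and at 1.17, 0.832 and 0.657 in control. A single library of each group reached 1 TPM, and the groups overlapped. The difference of Zscan4f from control was -0.19 (95% confidence interval -0.75 to 0.37, adjusted p = 0.67, limma). The unnamed locus RP23-195K8.8 overlaps Car9 by 1782 bases on the other strand and stood at 0.811 ± 0.239 TPM with Zscan4f, 2.20 ± 0.682 with Zscan4f3A and 3.39 ± 1.16 in control. Its reads and those of Car9 cannot be told apart without strand. Car12, a related membrane enzyme, stood at 1.12 ± 0.430 TPM with Zscan4f, 2.5 ± 0.615 with Zscan4f3A and 2.61 ± 0.204 in control (adjusted p = 0.017 against control, limma).

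Ranked by mean TPM, the order of the 10 genes was led by Ddit4 in all groups and ended with Ndrg1, Ankrd37 and Car9. Egln3 was second with Zscan4f, above Epas1 (66.1 ± 1.90 TPM) and Hif1a (60.2 ± 4.04), and below both in the other groups. With Zscan4f no neighbours in the order overlapped. Bnip3 and Adm overlapped with Zscan4f3A, and Vegfa, Adm and Bnip3 formed an overlapping run in control at 33.9 ± 2.31, 32.3 ± 1.76 and 31.9 ± 1.97 TPM. In the Zscan4f libraries the same 3 genes stood apart, at 36.6 ± 1.23, 23.2 ± 1.56 and 39.3 ± 0.847 TPM.

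The wider set of HIF targets outside glycolysis was split as well. Of 46 such genes, none of them among the 10, 45 passed the filter. With Zscan4f against control 7 rose and 12 fell, beside 8.74% and 9.71% of all genes tested. The median log2 fold change was -0.06. Of those that rose, Tfrc, the transferrin receptor, stood at 22.1 ± 2.28 TPM with Zscan4f, 13.9 ± 0.998 with Zscan4f3A and 12.2 ± 1.29 in control (SD, n = 3 each; log2 fold change against control 0.81, adjusted p = 0.00085, limma). Stc2, a secreted glycoprotein, stood at 172 ± 0.554, 143 ± 5.51 and 142 ± 0.718 TPM in the same order, and Bhlhe40, a transcriptional repressor, at 86.4 ± 3.27, 72.1 ± 5.04 and 68.2 ± 0.756. Lox and Loxl2, both lysyl oxidases of the matrix, went in opposite directions. Lox stood at 1192 ± 10.2 TPM with Zscan4f, 1068 ± 28.9 with Zscan4f3A and 1040.2 ± 14.3 in control (log2 fold change against control 0.20, adjusted p = 0.0016, limma), and Loxl2 at 147 ± 1.5, 218 ± 3.28 and 229.6 ± 5.56 (-0.64, adjusted p = 5.1e-06). Tgfb3, a growth factor of the TGF-beta family, was lower with Zscan4f as well, at 30.4 ± 0.864 TPM against 55.7 ± 1.49 in control (-0.85, adjusted p = 1.8e-05). The log2 fold changes of Igfbp3 and Nt5e were -1.05 and -1.87. Zscan4f against Zscan4f3A gave 7 higher and 11 lower, beside 7.48% and 7.64% of all genes. Against control, Zscan4f3A gave 0 higher and 1 lower, Igfbp3, beside 0.0189% and 0.0126% of all genes.

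Calls among the glycolytic HIF targets all went in 1 direction. Of 19 listed, all passed the filter. With Zscan4f against control 9 rose and 0 fell by limma, beside 8.74% and 9.71% of all genes. The median log2 fold change was 0.35, and 13 had an unadjusted limma p under 0.05, beside 31.1% of all genes. The call of Slc2a3, a glucose transporter, includes a Zscan4f library at 116.2 TPM beside 52.1 and 50.2. Pfkl, a phosphofructokinase, stood at 83.3 ± 1.02 TPM with Zscan4f, 60.0 ± 2.62 with Zscan4f3A and 57.7 ± 3.09 in control (SD, n = 3 each). The difference in balance between the 2 lists of targets was not tested, and both were chosen with earlier results of these data known. Among 16 relatives of the 10 genes, 15 passed the filter. With Zscan4f against control 1 rose (Pgf) and 3 fell (Vegfc, Ddit4l and Car12), beside the same 8.74% and 9.71%. Pgf and Vegfc, both ligands of the VEGF family, stood at 35.2 ± 4.67 and 5.75 ± 0.330 TPM with Zscan4f, at 28.9 ± 1.55 and 9.13 ± 1.30 with Zscan4f3A and at 23.4 ± 3.38 and 10.4 ± 0.163 in control (adjusted p = 0.011 and 0.0010 against control, limma).

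**Figure D4:**
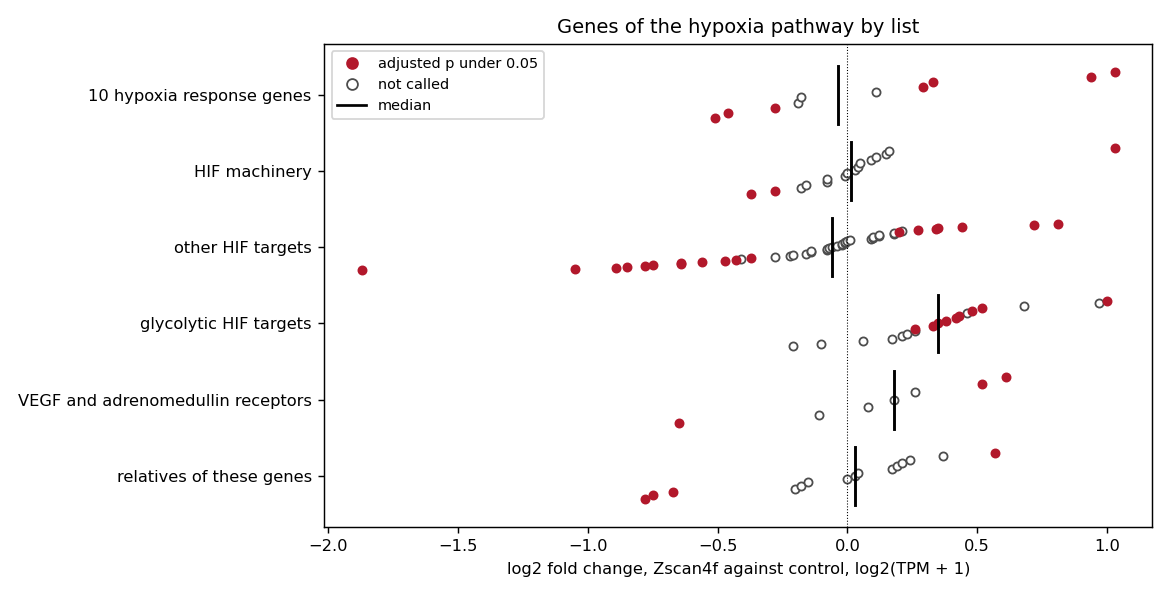
Log2 fold changes of Zscan4f against control for the genes of each list that passed the filter (points, filled where the adjusted p was under 0.05), with the list median (black line). Glycolytic targets lie mostly right of 0 with a median of 0.35, while the other targets and the 10 hypoxia genes lie on both sides, with medians of -0.06 and -0.03. A gene on several lists is drawn in each.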

How the data were processed

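RNA from 9 libraries was analysed, 3 each for Zscan4f, Zscan4f3A and control, grouped by their titles. Reads were aligned with HISAT2 2.1.0 and quantified with StringTie, per the submitters' processing notes. The deposited TPM values are scaled by the authors to the same sum per library, the deposited FPKM values by fragments per library, and the deposited coverage signal is mean read depth. No genome build is given in the sources used here. Of the gene IDs, 54165 were found in GENCODE M21 (GRCm38), 97.7% of them at identical positions. Entries sharing a gene ID were summed, and no libraries were identical. Without counts, precision is the SD of 3 libraries.

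Fits used R 4.3.3 and limma 3.58.1 (empirical Bayes with a trend, all 9 libraries, two-sided), tested on simulated data. Tables and figures used Python 3.11.15 with pandas and matplotlib. The 10 genes and all lists were chosen with earlier results of these data known. Beyond the 10, the genes named were Zscan4f, up to 4 called genes of smallest p per list and direction, receptors and relatives. Others, such as Lrp2bp, overlap one of the 10 or were named after their values were seen. Alternatives were a pseudocount of 0.1, no filter, FPKM, median-of-ratios scaling, only the groups compared, the replicate number as a block, and leaving out each library.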

Additional observations from a re-analysis of the deposited data

How the results depend on the processing

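The 7 calls of Zscan4f against control among the hypoxia genes kept their direction and stayed called under all 13 alternatives run for that comparison, 1 of them (without Zscan4f3A replicate 3) chosen after seeing the data. Adjusted p reached at most 0.038 (Adm), and log2 fold changes ran from 1.01 to 1.04 for Egln3 and from 0.74 to 1.13 for Ankrd37. The count of all genes called with Zscan4f against control ran from 2098 to 2302 with 1 of its libraries left out. Of the 6 calls of Zscan4f against Zscan4f3A, that of Ddit4 was lost without Zscan4f replicate 3, and Adm was called with FPKM (adjusted p = 0.040) and without Zscan4f3A replicate 3. The count of all genes called there was 1548 to 1997 with 1 library left out, the lowest without Zscan4f replicate 3. For Zscan4f3A against control, 5 genes were called, 3 without the filter, 1 with the replicate block and 1 to 16 with 1 library left out, namely 16 without Zscan4f3A replicate 3, and 8, 9 or 1 when control library 1, 2 or 3 was omitted. The count of hypoxia genes among them was 0 in every such fit. Directions reversed only for values near 0 in uncalled genes. In Zscan4f3A against control the range with 1 library left out was -0.02 to 0.0006 for Epas1 (0.01 with FPKM), -0.05 to 0.03 for Vegfa and -0.12 to 0.07 for Car9, and in Zscan4f against Zscan4f3A it was -0.26 to 0.0001 for Car9. The Car9 ranges lack 3 omissions, of Zscan4f replicate 2, Zscan4f3A replicate 1 and control replicate 1, since Car9 then missed the filter, as it did with FPKM and with only the groups compared. These 3 libraries alone held Car9 at 1 TPM or more, at 1.42, 1.01 and 1.17, and the filter asks for at least 3. Why the counts of all genes called differed between settings was not tested. Over all genes passing the filter, same-numbered libraries did not deviate together (correlations from -0.079 to 0.053 over 9 pairs). Such a correlation cannot exclude a pairing or batch that touches only some genes. The replicate block changed no call among the hypoxia genes. For Hif1a with Zscan4f against control it took the SE from 0.11 to 0.05. The depth behind single values is unknown, and Car9, at about 1 TPM, is the least precise of the 10.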

Other observations

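A few genes on the lists varied widely within groups. They were chosen after their values were seen. Ndrg4, a relative of Ndrg1, stood at 94.5, 56.5 and 61.0 TPM with Zscan4f, at 93.4, 59.3 and 95.3 with Zscan4f3A and at 62.0, 58.6 and 62.7 in control. Ak4, a mitochondrial adenylate kinase induced by hypoxia, stood at 11.8, 4.93 and 5.03 TPM with Zscan4f, at 3.37, 18.0 and 14.9 with Zscan4f3A and at 15.4, 5.31 and 3.57 in control. Slc2a3 stood at 52.1, 50.2 and 116.2 TPM with Zscan4f, at 39.7, 40.2 and 36.9 with Zscan4f3A and at 34.0, 36 and 29.8 in control, so a single Zscan4f library was far above the other two. All its Zscan4f libraries lay above all others, and it was called against control (log2 fold change 1.00, adjusted p = 0.037, limma). Neither Ndrg4 nor Ak4 was called in any of the 3 comparisons.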
